A study of Mus musculus with 29 samples.

Results

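The genes described here are the nucleic acid sensing genes linked to systemic lupus erythematosus (SLE), in kidney, tertiary lymphoid structures (TLS) and lymph nodes of lupus-prone mice. They were chosen by name from their known roles, with earlier results of these data known. Of the 10 genes named (Tlr3, Tlr7, Tlr9, Unc93b1, Myd88, Irak4, Irf5, Irf8, Tmem173 and Trex1), 9 were read from the table of 13982 genes, and Trex1, the cytosolic exonuclease that degrades DNA, was not analysed here. In the 14 libraries together the 9 genes had between 14 reads (Tlr3) and 833 reads (Unc93b1). Tlr3, Tlr7, Tlr9 and Irak4 were at or near the floor of 3 reads in most libraries, so reads per library are given for every gene.

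Cells recognise nucleic acids in endosomes and in the cytosol. In endosomes, Tlr3 binds double-stranded RNA, Tlr7 single-stranded RNA and Tlr9 DNA with unmethylated CpG, and all of them need the chaperone Unc93b1 to leave the endoplasmic reticulum. Tlr7 and Tlr9 signal through the adaptor Myd88 and the kinase Irak4 to NF-kB and to the transcription factor Irf5, while Tlr3 uses the adaptor Trif. In the cytosol, cGAS reports DNA to STING, the product of Tmem173. Irf8 is a transcription factor of B cells and of the monocyte and dendritic cell lineage. In SLE, immune complexes that carry nucleic acids are taken up by B cells and dendritic cells, where this machinery drives interferon and antibody responses.

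The mice were NZB/W, a cross of the NZB and NZW strains that develops lupus, and their RNA was sequenced. The tissues of proteinuric mice gave 4 libraries of kidney (mice H6, H20, H115 and H117, aged 39, 36, 25 and 32 weeks), 3 of TLS (H6, H20 and H115) and 3 of lymph node (H6, H20 and H117). The other lymph nodes came from 3 mice positive for antibodies against double-stranded DNA (D10, D11 and L25, aged 28, 29 and 18 weeks) and from 1 mouse labelled young (C45, aged 4 weeks). No transgene and no treatment is named in the labels. TLS were dissected by hand from the proteinuric kidneys and the kidney tissue came from the same kidneys. Each library is 1 tissue of 1 mouse, and the antibody-positive lymph nodes had their RNA isolated with another kit (miRNeasy) than all the others (TRIzol), so the kit and the disease state cannot be told apart. Every mouse with a proteinuric lymph node was also older than every antibody-positive mouse, so age and disease state cannot be told apart there either.

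The libraries held between 343825 and 443379 reads in genes. A value is the number of reads divided by the size factor of the library (normalized reads), and 3 reads, the floor used here, were worth between 2.36 and 5.32 normalized reads. The share of reads in ribosomal RNA genes was 59.6% in the kidney of H117, 32.8% in the lymph node of H6, 24.6% in the TLS of H115 and at most 7.58% in the others. The summed level of 9 kidney tubule markers was 7276 to 20951 normalized reads in kidney, 1894 to 8246 in TLS and 0 to 1.89 in proteinuric lymph nodes, so the TLS libraries held kidney RNA. The summed level of 8 B cell markers was 0 to 23.6 in kidney, 331 to 506 in TLS and 633 to 967 in proteinuric lymph nodes, and Ms4a1, Cr2, Fcer2a and Blk had no read in kidney. In pieces of tissue, fewer cells of a type and less RNA per cell cannot be told apart.

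Differences between groups were tested with limma on log2(value + 1), where the value is the deposited one, for genes whose value averaged 5 or more over the fitted libraries, and a gene was called at a Benjamini-Hochberg adjusted p under 0.05 over all genes tested. For the 3 proteinuric tissues, 1 fit covered 7382 genes, and in it Unc93b1, Myd88, Irf5, Irf8 and Tmem173 passed the filter. Lymph nodes of proteinuric and antibody-positive mice were fitted apart, with 6810 genes, and there Tlr9 passed as well. Tlr3, Tlr7 and Irak4 passed in neither. Irf8 had no read in kidney and Myd88 averaged under 5 there, so both passed in the tissues only through TLS and lymph node, and their differences from kidney follow in part from the filter.

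**Figure D1:**
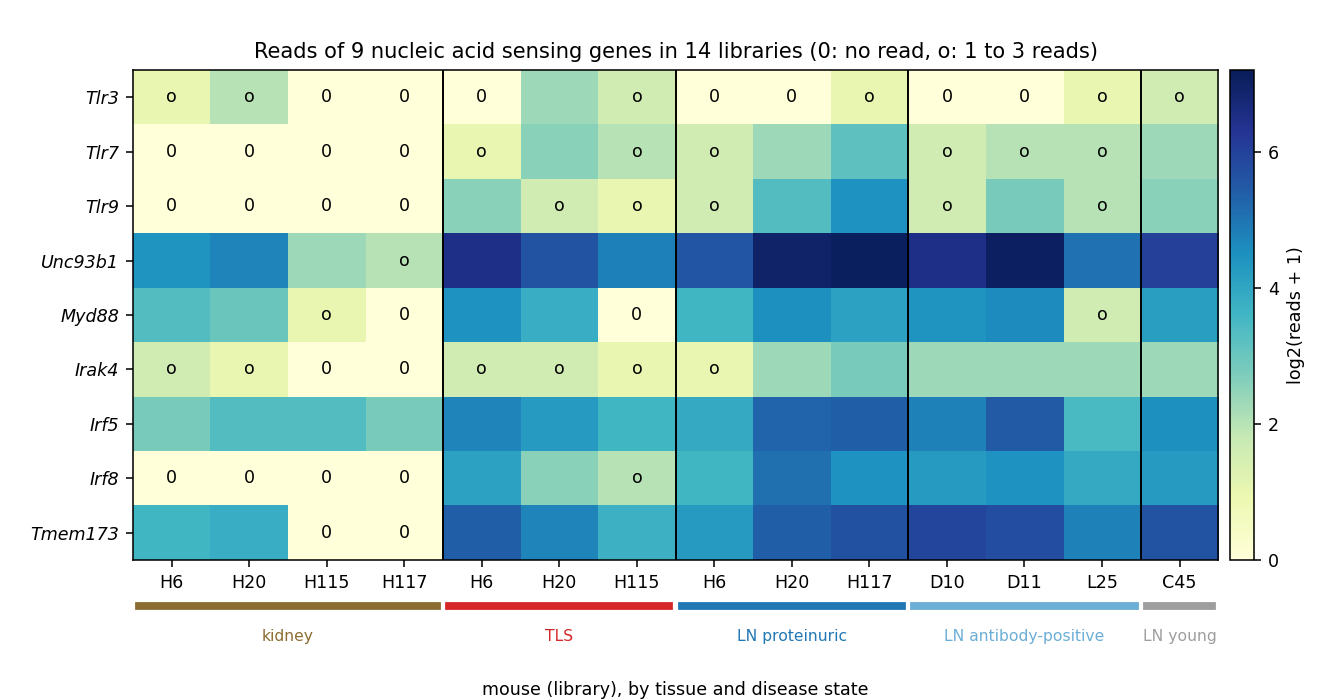
Reads of the 9 genes (rows) in the 14 libraries (columns, by mouse, tissue and disease state, LN for lymph node), coloured by log2(reads + 1), with 0 for no read and a circle for 1 to 3 reads. Tlr7, Tlr9 and Irf8 had no read in the 4 kidney libraries, and Unc93b1 had up to 136 reads in proteinuric lymph nodes.

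The sequences before the transcription start are shown for Irf8 and Myd88, since among the genes with a window in the RefSeq promoter table (7 of 10, Trex1 included) these are the only 2 with a match to an interferon-related motif. The windows run from 250 bases before to 50 bases after the start (build GRCm38.p6, 300 bases). On both strands, 4 motifs were searched: the core of the interferon-stimulated response element (ISRE, GAAANNGAAA), the gamma-activated sequence (GAS, TTCNNNGAA), a core bound by PU.1 (GAGGAAGT) and the NF-kB site. Of 32851 such windows of all genes, 3.44% held the ISRE core, 8.3% GAS, 3.2% the PU.1 core and 8.46% the NF-kB site. In the first Irf8 window (chr8:120736108-120736407, plus strand), capitals mark a GAS match at bases -171 to -163 from the start and another at -153 to -145. In the Myd88 window (chr9:119339969-119340268, minus strand, printed along the gene), capitals mark a GAS match at bases -46 to -38 and the ISRE core at -40 to -31, which overlap.
Irf8: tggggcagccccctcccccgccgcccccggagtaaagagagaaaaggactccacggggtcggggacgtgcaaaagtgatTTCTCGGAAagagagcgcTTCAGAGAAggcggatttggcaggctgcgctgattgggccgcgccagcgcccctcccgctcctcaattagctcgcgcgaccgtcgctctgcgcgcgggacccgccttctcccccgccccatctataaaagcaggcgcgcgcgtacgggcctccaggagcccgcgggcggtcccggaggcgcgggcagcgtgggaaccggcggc
Myd88: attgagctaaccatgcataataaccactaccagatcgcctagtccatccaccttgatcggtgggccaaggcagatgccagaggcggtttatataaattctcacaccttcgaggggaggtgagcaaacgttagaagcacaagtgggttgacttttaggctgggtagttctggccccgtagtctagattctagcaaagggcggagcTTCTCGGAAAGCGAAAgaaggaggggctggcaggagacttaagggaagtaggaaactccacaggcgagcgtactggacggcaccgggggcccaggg
The windows of Irf5 and Irak4 and the second window of Irf8 held none of the 4 motifs, Tlr9 held the PU.1 core at bases 10 to 17, and Tlr3 held an NF-kB site at bases -211 to -202. A match is a stretch of letters and not a site shown to be bound.

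The 3 receptors and Irak4 had the fewest reads of these genes. Tlr3 (chr8:45395665-45411080, minus strand) had 14 reads in all. In kidney it had 1, 3, 0 and 0 reads (H6, H20, H115 and H117), in TLS 0, 4 and 2 (H6, H20 and H115), in proteinuric lymph node 0, 0 and 1 (H6, H20 and H117), in antibody-positive lymph node 0, 0 and 1 (D10, D11 and L25) and in the young lymph node 2. Only the TLS of H20 was above 3 reads. Kidney, TLS, proteinuric and antibody-positive lymph nodes all overlapped, while the young lymph node was above the other lymph nodes. Pooled over libraries, the ratio of TLS to kidney was 1.67, with a 95% counting interval from 0.395 to 8.03, so no difference was detectable at this depth. These intervals are exact, conditional on the total, and cover counting error only.

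Tlr7, the RNA receptor whose extra copy drives disease in mice with the Yaa locus, lies on chromosome X (chrX:167304929-167330558, minus strand). It had no read in the kidneys of H6, H20, H115 and H117. The TLS had 1, 5 and 3 reads (H6, H20 and H115), the proteinuric lymph nodes 2, 4 and 8 (H6, H20 and H117), the antibody-positive lymph nodes 2, 3 and 3 (D10, D11 and L25) and the young lymph node 4. Every lymphoid library thus had a read and no kidney library did. Against the 3 reads that a count of 0 in the pooled kidney libraries allows, Tlr7 was at least 3.33-fold higher in TLS and at least 5.86-fold higher in proteinuric lymph node. These bounds allow for counting error in kidney alone, and the exact 95% lower limits with that of the reads as well were 2.19 in TLS (1.18 without the TLS of H20) and 4.16 in lymph node (2.52 without that of H117). With no filter on low values, limma gave an adjusted p of 0.0819 for TLS and of 0.00258 for lymph node against kidney. TLS and proteinuric lymph node overlapped, with a pooled ratio of 0.569 (95% counting interval 0.217 to 1.41).

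Tlr9 (chr9:106222598-106226883, plus strand), the receptor for CpG DNA, also had no read in the 4 kidney libraries. The TLS had 5, 2 and 1 reads (H6, H20 and H115) and the proteinuric lymph nodes 2, 9 and 21 (H6, H20 and H117). The antibody-positive lymph nodes had 2, 6 and 3 reads (D10, D11 and L25) and the young lymph node 5. The lymph node of H117 stood above all other libraries with 65.6% of the Tlr9 reads of its group, and the lowest proteinuric lymph node (H6) was within the range of TLS. Pooled, and against 3 reads in kidney, Tlr9 was at least 2.96-fold higher in TLS and at least 13.4-fold higher in proteinuric lymph node, with exact 95% lower limits of 1.90 and 10.3. Without the TLS of H6, 3 reads were left in TLS and the lower limit was 0.706, and without the lymph node of H117 the bound for lymph node was 7.86-fold (lower limit 5.38). With no filter on low values, limma gave an adjusted p of 0.214 for TLS against kidney, of 7.48e-04 for lymph node against kidney and of 0.0919 for TLS against lymph node. The pooled ratio of TLS to lymph node was 0.221 (95% counting interval 0.0881 to 0.490). The difference by state was not called in limma: proteinuric nodes had 9.47 ± 7.10 and antibody-positive nodes 3.67 ± 1.94 normalized reads (SD, n = 3 each), and the log2 fold change was 0.90 (SE 0.50, adjusted p = 0.998). The pooled ratio of these states, 2.93 (95% counting interval 1.44 to 6.44), rests largely on H117 and does not include the spread between mice.

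Unc93b1 (chr19:3935186-3949340, plus strand), the chaperone of the endosomal receptors, was the most abundant of the 9 genes per kilobase of exon in every group, with 4.02 normalized reads per kilobase in kidney, 15.6 in TLS, 32.0 in proteinuric and 26.7 in antibody-positive lymph node (group means) and 18.9 in the young lymph node. In kidney it had 20, 25, 4 and 3 reads (H6, H20, H115 and H117), or 17.7, 21.1, 4.64 and 5.32 normalized reads. The TLS had 88, 48 and 27 reads (74.6, 37.7 and 29.4 normalized reads in H6, H20 and H115), and the proteinuric lymph nodes 46, 121 and 136 reads (66.7, 114.6 and 110 normalized reads in H6, H20 and H117). Kidney and TLS did not overlap, while the highest TLS was above the lowest lymph node.

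Unc93b1 was higher in TLS than in kidney, at 47.3 ± 24.1 (SD, n = 3) against 12.2 ± 8.44 normalized reads (SD, n = 4), and the log2 fold change was 1.87 (SE 0.48, adjusted p = 0.0215). It was higher in every TLS than in the kidney of the same mouse. The call was lost without the TLS of H6 (log2 fold change 1.49, adjusted p = 0.118), the TLS of H20 (1.97, 0.0515), the kidney of H115 (1.57, 0.0627) or the kidney of H117 (1.66, 0.0593), or without the 3 libraries richest in ribosomal RNA (1.92, 0.0555). Lymph node, at 97.1 ± 26.5 (SD, n = 3), was higher than kidney by 2.95 on the log2 scale (SE 0.48, adjusted p = 3.27e-04), and no alternative ended this call. The difference between TLS and lymph node was -1.08 (SE 0.52, adjusted p = 0.240). The antibody-positive lymph nodes had 89, 130 and 32 reads (82.5, 124 and 36.7 normalized reads in D10, D11 and L25) and overlapped with the proteinuric ones (log2 fold change 0.38, SE 0.48, adjusted p = 0.998). The young lymph node had 64 reads (57.3 normalized reads).

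Myd88 (chr9:119335934-119341411, minus strand), the adaptor of Tlr7 and Tlr9, ranged from 0 to 21 reads within TLS alone. In kidney it had 9, 7, 1 and 0 reads (H6, H20, H115 and H117), in TLS 21, 13 and 0 (H6, H20 and H115), in proteinuric lymph node 11, 22 and 16 (H6, H20 and H117), in antibody-positive lymph node 20, 23 and 2 (D10, D11 and L25) and in the young lymph node 17. The TLS of H115 and the antibody-positive lymph node of L25 were at or under 3 reads, as were the kidneys of H115 and H117. TLS, at 9.34 ± 8.94 normalized reads (SD, n = 3), was not called against kidney, at 3.76 ± 3.79 (SD, n = 4), and the log2 fold change was 0.62 (SE 0.69, adjusted p = 0.614). Without the TLS of H115 it was (1.58, adjusted p = 0.0486), and without the TLS of H6 the direction turned (-0.04).

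Lymph node had 16.6 ± 3.98 normalized reads of Myd88 (SD, n = 3) and did not overlap with kidney. The log2 fold change of 1.83 (SE 0.69) was at an adjusted p of 0.0487, and 14 of 21 alternatives ended the call, with adjusted p up to 0.133. Those included all count tests, both changes of the filter and leaving out any of the 3 proteinuric lymph nodes, the TLS of H20 or the kidneys of H20, H115 or H117. In the antibody-positive comparison the log2 fold change was 0.50 (SE 0.62, adjusted p = 0.998). Of the exon bases of Myd88, 11.3% are shared with Acaa1a on the other strand, which had 7 to 21 reads in every library, and whether reads were counted by strand is not given in the sources used here.

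The gene most like Myd88 over the 14 libraries was Rps6, a protein of the small ribosomal subunit (Pearson's r = 0.963 of log2(value + 1)). Rps6 had 152, 204, 64 and 41 reads in kidney (H6, H20, H115 and H117) and 578, 369 and 62 in TLS (H6, H20 and H115). It had 339, 832 and 488 reads in proteinuric lymph node (H6, H20 and H117), 606, 670 and 134 in antibody-positive lymph node (D10, D11 and L25) and 594 in the young lymph node. The 4 libraries with at most 2 Myd88 reads (kidneys of H115 and H117, TLS of H115 and lymph node of L25) held 4 of the 5 lowest Rps6 values, and the kidney of H6 the other. Rps6 was picked as the best match, so this agreement follows in part from the choice. The size factors of these 4 libraries were 0.863, 0.563, 0.917 and 0.872. The lymph node of H6, with 11 Myd88 reads, had 0.690, and the rest had 1.05 or more. What these libraries share was not tested.

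**Figure D2:**
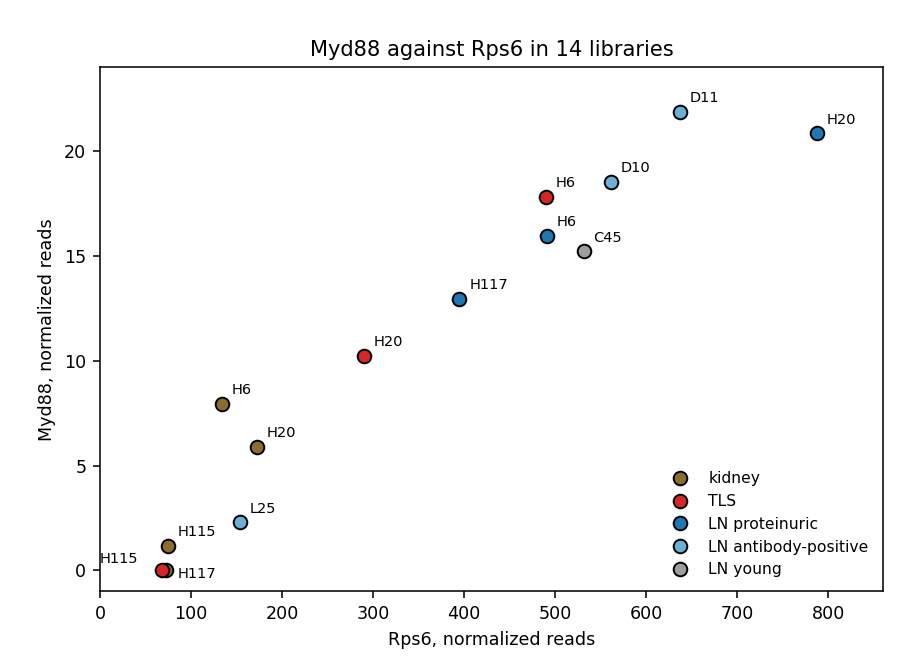
Normalized reads of Myd88 (vertical axis) against Rps6 (horizontal axis), 1 point per library, coloured by tissue and disease state (LN, lymph node) and labelled by mouse. The TLS of H115 sits with the kidneys of H115 and H117 at the low end of both genes, and the lymph node of L25 sits far below those of D10 and D11.

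Irak4 (chr15:94543643-94581815, plus strand), the kinase that Myd88 recruits, stayed within a few reads of the floor. The kidneys had 2, 1, 0 and 0 reads (H6, H20, H115 and H117), the TLS 2, 2 and 1 (H6, H20 and H115) and the proteinuric lymph nodes 1, 4 and 6 (H6, H20 and H117). Each antibody-positive lymph node and the young lymph node had 4 reads. Kidney and TLS overlapped, with a pooled ratio of 1.85 (95% counting interval 0.360 to 11.9). The pooled ratio of lymph node to kidney, 4.60 from 11 against 3 reads, had a 95% counting interval from 1.22 to 25.7, and limma with no filter on low values gave an adjusted p of 0.0286. Its exons share 7.87% of their bases with Twf1 on the other strand, which had 2 to 30 reads.

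Irf5 (chr6:29526625-29541871, plus strand), the transcription factor activated downstream of Tlr7 and Tlr9 and a risk gene of human SLE, was read in all 14 libraries. The kidneys had 6, 9, 9 and 6 reads (5.30, 7.59, 10.4 and 10.6 normalized reads in H6, H20, H115 and H117). The TLS had 25, 18 and 11 reads (21.2, 14.1 and 11.99 normalized reads in H6, H20 and H115) and the proteinuric lymph nodes 14, 38 and 41 (20.3, 36.0 and 33.2 normalized reads in H6, H20 and H117). Every TLS was above every kidney, but the highest TLS was above the lowest lymph node. Unlike Unc93b1, Myd88 and Tmem173, Irf5 was not lower in the kidneys of H115 and H117 than in those of H6 and H20.

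The difference of Irf5 between TLS, at 15.8 ± 4.81 (SD, n = 3), and kidney, at 8.49 ± 2.54 (SD, n = 4), was 0.74 on the log2 scale (SE 0.33) and missed the threshold (adjusted p = 0.159). It stayed above the threshold in all 21 alternatives (adjusted p from 0.0819 to 0.432). Lymph node, at 29.8 ± 8.38 (SD, n = 3), was higher than kidney by 1.59 (SE 0.33, adjusted p = 0.00183), which held in all 21 alternatives (adjusted p up to 0.0114). TLS and lymph node differed by -0.85 (SE 0.35, adjusted p = 0.170). The antibody-positive lymph nodes had 26, 43 and 10 reads (D10, D11 and L25), the range of which took in the proteinuric values (log2 fold change 0.33, SE 0.44, adjusted p = 0.998), and the young lymph node 22. Of the exon bases of Irf5, 14.1% are shared with Tnpo3 on the other strand, which had 1 to 8 reads and up to 6 in kidney.

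Irf8 (chr8:120736358-120756694, plus strand) had no read in any kidney library, unlike Irf5. The TLS had 16, 5 and 3 reads (13.6, 3.93 and 3.27 normalized reads in H6, H20 and H115) and the proteinuric lymph nodes 11, 33 and 21 (15.9, 31.3 and 17 normalized reads in H6, H20 and H117). The TLS of H6 held 66.7% of the Irf8 reads in TLS, and every TLS was below every lymph node.

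Against the 3 reads that a count of 0 in the pooled kidney libraries allows, Irf8 was at least 8.89-fold higher in TLS and at least 27.2-fold higher in proteinuric lymph node, with exact 95% lower limits of 6.69 and 21.5. Without the TLS of H6 the bound for TLS was 4.56-fold (lower limit 2.92). The fitted difference of TLS from kidney passed the threshold (adjusted p = 0.00891), as did that of lymph node (adjusted p = 2.92e-05). Without the TLS of H6 the first missed it (adjusted p = 0.0542). Irf8 was lower in TLS, at 6.92 ± 5.76, than in lymph node, at 21.4 ± 8.56 (SD, n = 3 each), and the log2 fold change was -1.53 (SE 0.44, adjusted p = 0.0418), and 14 of 20 alternatives ended this call. With the mouse as a replicate block the log2 fold change was -1.41 and the adjusted p 0.154, the 3 count tests gave adjusted p of 0.111 to 0.197, and the call was also lost without any of the 3 lymph nodes (0.0793, 0.218 and 0.101 without H6, H20 and H117), the TLS of H20 (0.148) or of H115 (0.165), or the kidney of H6 (0.0527) or H20 (0.0502). The antibody-positive lymph nodes had 18, 21 and 14 reads (16.7, 20.0 and 16.1 normalized reads in D10, D11 and L25) and the young lymph node 18 (16.1 normalized reads), all within the range of the proteinuric nodes (log2 fold change by state 0.21, SE 0.32, adjusted p = 0.998).

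Tmem173 (chr18:35733679-35740554, minus strand), which encodes STING, the adaptor that carries the cGAS signal to Irf3, was second to Unc93b1 per kilobase in TLS and in lymph node. The kidneys had 11, 13, 0 and 0 reads (9.73, 10.97, 0 and 0 normalized reads in H6, H20, H115 and H117). The TLS had 41, 25 and 12 reads (34.8, 19.6 and 13.1 normalized reads in H6, H20 and H115) and the proteinuric lymph nodes 18, 41 and 50 (26.1, 38.84 and 40.5 normalized reads in H6, H20 and H117). Kidney stayed below TLS throughout, and the TLS of H6 was above the lymph node of H6.

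Tmem173 was higher in TLS, at 22.5 ± 11.1 (SD, n = 3), than in kidney, at 5.17 ± 5.99 (SD, n = 4), and the log2 fold change was 2.06 (SE 0.61, adjusted p = 0.0404). The direction held in all 21 alternatives, but 13 of them ended the call (adjusted p up to 0.174). Those included the 3 count tests and leaving out the TLS of H6 (0.174) or H20 (0.0966) or the kidney of H115 (0.0971) or H117 (0.104). Leaving out the lymph node of H6 (0.0556), H20 (0.0570) or H117 (0.0611), which share the fit but are not compared here, ended it too. Lymph node, at 35.1 ± 7.88 (SD, n = 3), was higher than kidney by 2.75 (SE 0.61, adjusted p = 0.00307), which held in all 21. TLS and lymph node differed by -0.68 (SE 0.65, adjusted p = 0.590). Tmem173 was the only gene of the 6 tested by state whose mean was lower in the proteinuric lymph nodes. The antibody-positive ones had 60, 53 and 26 reads (55.6, 50.4 and 29.8 normalized reads in D10, D11 and L25), the log2 fold change was -0.32 (SE 0.34, adjusted p = 0.998), and the young lymph node had 48 reads (43.0 normalized reads).

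**Figure D3:**
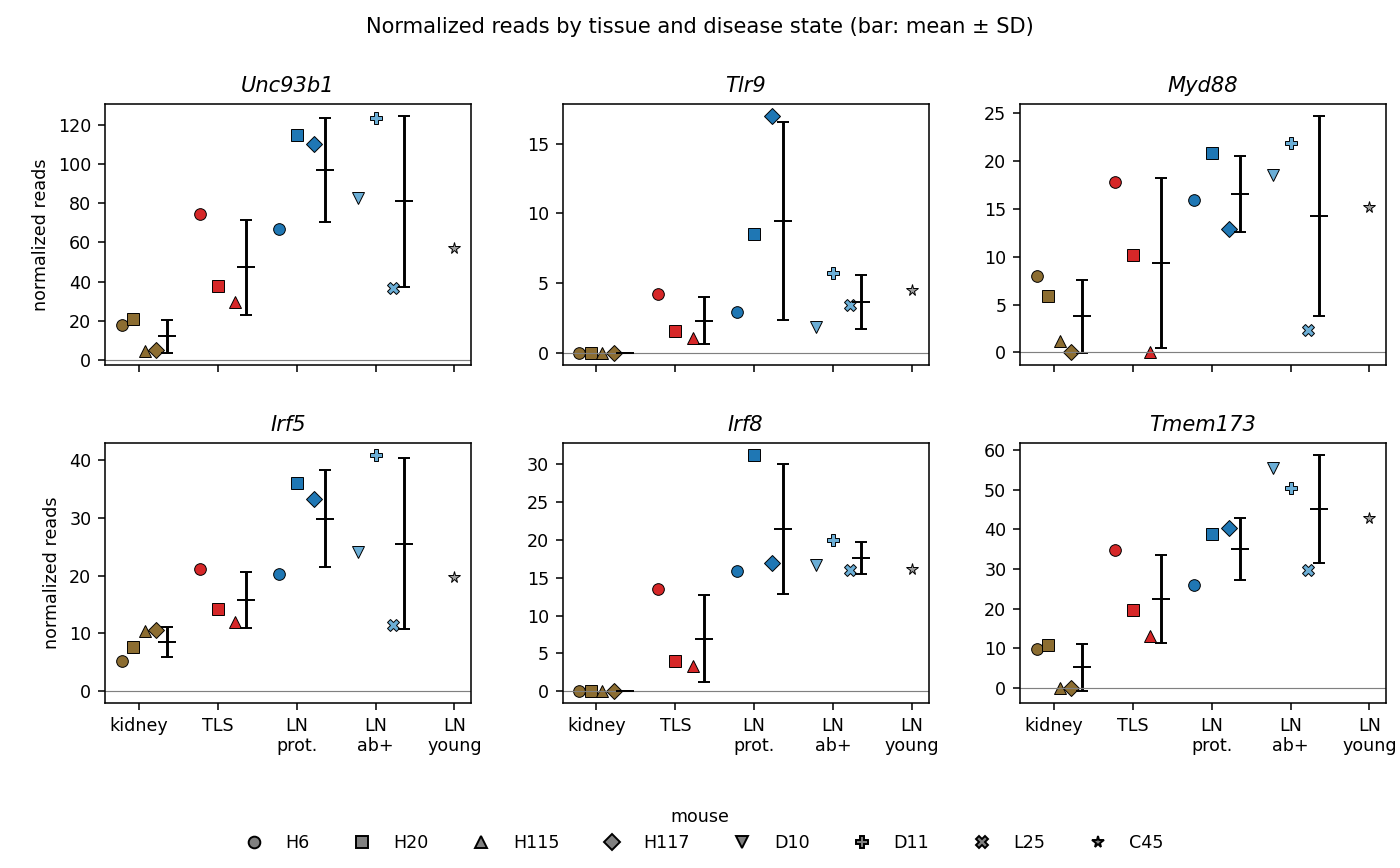
Normalized reads (vertical axis) of 6 genes by tissue and disease state (LN, lymph node), 1 point per library with the mouse given by its shape, and the mean ± SD of each group of 3 or 4 beside the points. Irf8 and Tlr9 are at 0 in all kidneys, while Irf5 is read in every kidney.

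Side by side, the contrast of TLS with kidney was called for Unc93b1, Irf8 and Tmem173 and not for Irf5 or Myd88, where 8.62% of the 7382 genes tested were called higher in TLS. The contrast of lymph node with kidney was called for all 5, where 20.8% of all genes were called higher in lymph node. Between TLS and lymph node, Irf8 alone of the 5 was called, where 1.69% of all genes were called higher in lymph node. These comparisons share libraries, and since a low-value filter decided which genes were tested, the counts describe 5 of 9 genes. The median log2 difference of all genes tested was -0.01 for TLS against kidney, -0.04 for TLS against lymph node and 0.05 for lymph node against kidney.

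**Figure D4:**
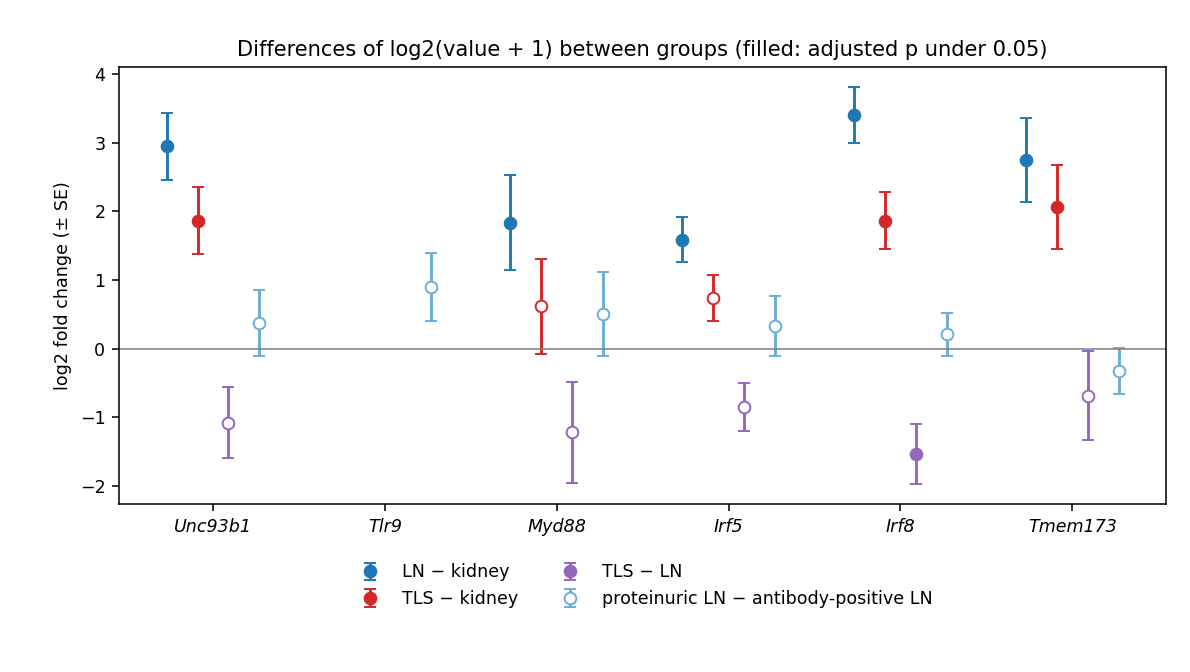
Log2 fold change (± SE, limma on log2(value + 1)) of the genes that passed the filter, in 4 comparisons (LN, lymph node), with filled circles at an adjusted p under 0.05. Lymph node minus kidney is above 0 for the 5 genes tested, TLS minus lymph node is below 0 for each of them, and the 6 differences between lymph node states are all open circles.

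Between proteinuric and antibody-positive lymph nodes none of the 6 genes was called, and limma called 0% of the 6810 genes in either direction. An unadjusted p under 0.05 was reached by 215 genes, a smaller share of the 6810 than the 0.05 expected with no difference at all. DESeq2 called 13 genes, none of them among the 9 described here, and both edgeR tests called 0. L25, the youngest antibody-positive mouse, had the lowest value of its group for Unc93b1, Myd88, Irf5, Irf8 and Tmem173. The summed T cell markers were 379 to 387 normalized reads in proteinuric and 489 to 798 in antibody-positive nodes, the B cell markers 633 to 967 and 622 to 1311, and the part of these cells in the differences by state was not tested. With 3 mice a side, many differences would be missed: in simulated data of this comparison, limma recovered 6% of the genes changed 2-fold and 62% of those changed 4-fold. The simulation gave all genes the same dispersion and the libraries no shared shifts, so recovery in the real libraries may differ. The young lymph node lay within the range of the other lymph nodes for Tlr7, Tlr9, Unc93b1, Myd88, Irak4, Irf5, Irf8 and Tmem173, and only Tlr3, with 2 reads, was above it.

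The other genes of these pathways were taken from 8 lists of known components, which hold the members as well and share some genes. These lists were chosen with earlier results of these data known, so their counts are a description. The counts in TLS stand beside the 8.62% of all genes called higher there than in kidney, and 9 of the 19 list genes called averaged under 5 in kidney, so they passed the filter only through the lymphoid libraries and their differences follow in part from it. Of the endosomal TLR machinery, 6 of 12 genes tested were higher in TLS and none lower, with a median log2 fold change of 1.14 against -0.01 over all genes. Cd180 and Ly86 form a complex at the cell surface that was placed in this list, and without them the count is 4 of 10. Ly86 (MD-1) had 75.1 ± 55.0 normalized reads in TLS and 7.71 ± 8.00 in kidney, a log2 fold change of 3.02 (SE 0.54, adjusted p = 0.00281). The nuclease Pld4 (2.28, SE 0.68, adjusted p = 0.0411), the protease Ctss (2.27, SE 0.53, adjusted p = 0.0132), which cleaves endosomal receptors, and Cd180 (1.74, SE 0.34, adjusted p = 0.00496) were also higher in TLS, as was Unc93b1. Of the surface TLRs and co-receptors, only Tlr1 of 4 tested was called. It had no read in kidney and 22 in TLS, at least 8.15-fold higher against 3 reads (exact 95% lower limit 6.09).

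Of the cytosolic DNA sensing list, 5 of 8 genes tested were higher in TLS and none was lower (median log2 fold change 1.70). Beside Tmem173 they were Pyhin1 (2.38, SE 0.40, adjusted p = 0.00203), Mndal (1.99, SE 0.41, adjusted p = 0.00646) and Mnda (1.42, SE 0.37, adjusted p = 0.0223) of the interferon-inducible PYHIN family, and Zbp1, a sensor of Z-form nucleic acid (2.00, SE 0.39, adjusted p = 0.00451). Of the interferon regulatory factors, 4 of 8 were higher (median 1.27): Irf8, Irf4, a factor of plasma cells and activated lymphocytes (2.49, SE 0.41, adjusted p = 0.00154), Irf1 (1.82, SE 0.47, adjusted p = 0.0213) and Irf7, which drives type I interferon after Tlr7 or Tlr9 (1.41, SE 0.40, adjusted p = 0.0338). The Irf7 call was lost with the mouse as a replicate block (adjusted p = 0.0643), with scaling to reads outside ribosomal RNA genes (0.0582) and without the 3 libraries richest in ribosomal RNA (0.149). Without those libraries Irf1 (0.0651), Ctss (0.0772), Pld4 (0.0791) and Mnda (0.122) were lost as well. Mnda was called by none of the 3 count tests (adjusted p from 0.0613 to 0.0784). Pld4 was lost with both edgeR tests (0.0621 and 0.0637) and with that scaling (0.0738). That setting also drops the 1 read that the deposited values add, so it changes more than the scale. Of the nucleases, 3 of 9 were higher (median 0.51): Pld4, Samhd1, a dNTP hydrolase (2.02, SE 0.48, adjusted p = 0.0142), and Dnase1l3, which digests DNA in chromatin of dying cells, with no read in kidney and 23 in TLS, at least 8.52-fold higher against 3 reads (exact 95% lower limit 6.39). Pyhin1, Mndal, Mnda, Zbp1, Irf4, Irf8, Cd180, Tlr1 and Dnase1l3 are the 9 genes under the filter in kidney.

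Of the Myddosome and NF-kB list, 1 of 16 genes tested was higher in TLS (median 0.31), a share near that of all genes: Nfkbia, the inhibitor and target of NF-kB, at 95.2 ± 51.0 against 27.6 ± 12.7 normalized reads (1.70, SE 0.45, adjusted p = 0.0232). None of 4 genes of the Trif and kinase arm (median 0.37) and none of 4 genes of cytosolic RNA sensing (median 0.48) was called. Whether the lists differ from one another was not tested. Of the 19 list genes called in this comparison, 16 or 17 were called by each of the 3 count tests, 17 with the mouse as a replicate block and 16 with scaling to reads outside ribosomal RNA genes. Without the 3 libraries richest in ribosomal RNA 10 were, with 2 of 13 in the endosomal list, 2 of 8 interferon regulatory factors and 0 of 16 in the Myddosome and NF-kB list, and no sign turned in any of these.

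In lymph node against kidney, the higher genes numbered 7 of 12 in the endosomal list (2 lower), 8 of 16 in the Myddosome and NF-kB list, 8 of 8 interferon regulatory factors and 6 of 8 in cytosolic DNA sensing. They numbered 4 of 9 nucleases (1 lower), 2 of 4 in the Trif and kinase arm, 1 of 4 in cytosolic RNA sensing and 1 of 4 surface TLRs, where 20.8% of all genes were called higher in lymph node and 23% higher in kidney. The shares of the last 2 lists are near that of all genes. Of the 35 list genes higher in lymph node, 16 averaged under 5 in kidney and passed the filter only through the lymphoid libraries, with the same limit. The list genes higher in lymph node held the NF-kB subunits Nfkb2 (2.06, SE 0.61, adjusted p = 0.0167), Nfkb1 (1.83, SE 0.52, adjusted p = 0.0126) and Relb (1.83, SE 0.50, adjusted p = 0.00982). Only Relb of these was among the 16, and the subunit Rela was not called (0.74, SE 0.45, adjusted p = 0.205). Nfkb1 (0.0546) and Nfkb2 (0.0572) were lost with scaling to reads outside ribosomal RNA genes. Relb (0.0565) was lost without the 3 libraries richest in ribosomal RNA. Aim2, the inflammasome sensor of DNA and among those 16, had 10.9 ± 1.08 normalized reads in lymph node and 0.211 ± 0.422 in kidney (2.46, SE 0.41, adjusted p = 3.59e-04). The genes higher in kidney were the secreted nuclease Dnase1, at 51.3 ± 49.3 in kidney and 0.270 ± 0.467 in lymph node (-3.80, SE 0.88, adjusted p = 0.00509), and the lysosomal proteases Lgmn (-2.38) and Ctsl (-1.69), the last 2 named after their values were seen. Between TLS and lymph node, Irf8 was the only list gene called. With scaling to reads outside ribosomal RNA genes, the Myddosome and NF-kB list fell to 3 of 13 and the Trif and kinase arm to 0 of 3. The interferon regulatory factors fell to 6 of 8, and no sign turned in these lists. That setting also drops the 1 read added to the deposited values, so these changes cannot be put down to scaling alone. The interferon regulatory factors were 7 of 8 with DESeq2, with the replicate block (Irf3 adjusted p = 0.0880) and without the libraries rich in ribosomal RNA. The Trif and kinase arm gave 1 of 4 with DESeq2 and with the block, and the Myddosome and NF-kB list 5 of 16 with DESeq2.

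**Figure D5:**
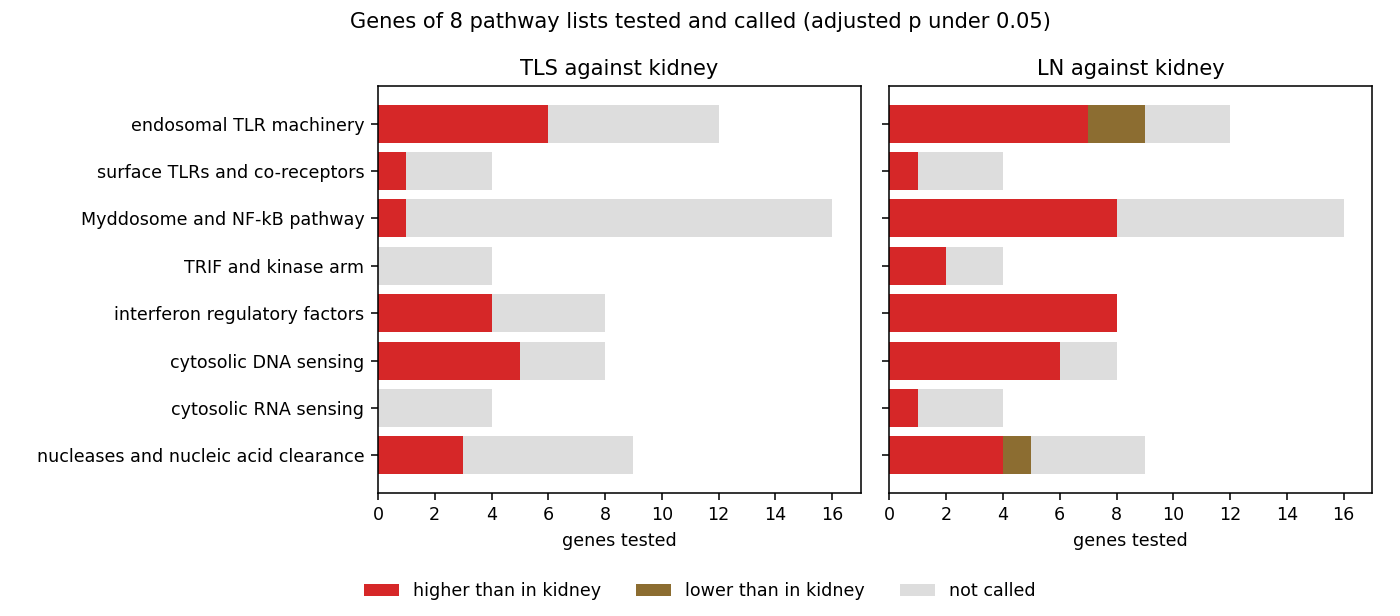
Number of genes tested in 8 pathway lists (bar length) and how many were called higher or lower than in kidney (adjusted p under 0.05), for TLS and for lymph node (LN). In TLS, the endosomal list holds 6 of 12 and cytosolic DNA sensing 5 of 8, and the Myddosome and NF-kB list holds 1 of 16.

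Cell type markers moved with tissue as well. All 7 B cell markers tested and all 7 T cell markers tested were higher in TLS than in kidney. The summed level of 7 macrophage markers was 103 to 444 normalized reads in kidney, 452 to 1100 in TLS and 742 to 1224 in proteinuric lymph node. Only 3 of these 7 were called higher in TLS than in kidney: C1qa, C1qb and C1qc, which held most of the sum (means of 261, 247 and 109 in TLS). Adgre1, Csf1r and Cd68 were not called, and Mertk went the other way (log2 fold change -0.42, not called). The sum of 5 conventional dendritic cell markers was 0 to 5.06, 11.99 to 31.4 and 18.8 to 66.4, and only Itgax of them was tested between tissues. Siglech and Cox6a2, defining markers of plasmacytoid dendritic cells, had no read in kidney or TLS, although the sum of 6 such markers was 33.7 to 111 in kidney and 94.9 to 186 in TLS. Most of that sum was Bst2 (means of 61.7 in kidney and 125 in TLS), which was not called between them. The part of these cells in the differences above was not tested. Among the 3 TLS, the H6 library had the highest sum of B cell markers (506) and macrophage markers (1100) and the lowest of kidney tubule markers (1894), and it also had the highest Tlr9, Unc93b1, Myd88, Irf5, Irf8 and Tmem173. Tlr7 and Tlr3 went the other way, with 1 and 0 reads in H6, 5 and 4 in H20, and 3 and 2 in H115. Irak4 had 2, 2 and 1 reads in H6, H20 and H115.

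Over the 14 libraries, the genes most like each member were named by Pearson's r of log2(value + 1) among 7398 genes, as a description, since the libraries share tissues and mice. They were Fermt3, Tap1 and Ncf4 for Unc93b1 (r = 0.994, 0.988 and 0.986) and Rps6, Alyref and Gtpbp2 for Myd88 (0.963, 0.948 and 0.944). For Irf5 they were Srpk3, Fcho1 and Stoml1 (0.970, 0.954 and 0.944), for Irf8 Pstpip1, Gimap5 and Il16 (0.988, 0.984 and 0.983) and for Tmem173 Mcm3, Irf1 and Cdc42se2 (0.986, 0.984 and 0.983). Among the members themselves, r ran from 0.653 (Myd88 and Irf8) to 0.958 (Unc93b1 and Tmem173). Per kilobase of exon, the order in proteinuric lymph node was Unc93b1 (32.0 ± 8.74), Tmem173 (12.8 ± 2.87), Irf5 (10.3 ± 2.88), Myd88 (6.44 ± 1.55), Irf8 (3.03 ± 1.21), Tlr9 (2.72 ± 2.04), Tlr7 (1.07 ± 0.456), Irak4 (0.670 ± 0.347) and Tlr3 (0.0518 ± 0.0897, SD, n = 3). The ranges of Tmem173 and Irf5 overlapped, as did those of Irf5 and Myd88, of Irf8 and Tlr9, of Tlr9 and Tlr7 and of Tlr7 and Irak4.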

How the data were processed

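RNA from 14 tissues was fragmented with RNase III, sequenced on an Ion Torrent PGM and mapped to GRCm38 in CLC Genomics Workbench 8. Each library of the comparisons is 1 tissue of 1 mouse. The authors deposited 1 table of gene counts normalized with DESeq, a signal: 1 is added to the reads of a gene and the sum is divided by the size factor of its library. Reads were recovered as the value over the column minimum, less 1, and 100% of the values came out whole within 1e-06. An added read count raises low values, so normalized reads are given here without it. Whether counting used strand is not given in the sources used here.

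The test was limma 3.58.1 (R 4.3.3) with trend and robust moderation on log2(deposited value + 1), for genes whose value averaged 5 or more, two-sided, with Benjamini-Hochberg adjustment over all genes of the fit. Pseudocount and filter understate the change of low genes. The 10 proteinuric libraries were fitted together over the 3 tissues, and 3 proteinuric against 3 antibody-positive lymph nodes apart. The young lymph node was described only. Alternatives were edgeR 4.0.16 with TMM or DESeq2 size factors and DESeq2 1.42.0 on the recovered reads, other filters and pseudocounts, scaling to reads outside ribosomal RNA genes, the mouse as a replicate block and leaving out each library. The scaling to reads outside ribosomal RNA genes used the recovered reads without the added 1, so it also changed the low values and the genes that passed the filter. Leaving out the 3 libraries with over 10% ribosomal RNA was chosen after seeing the data.

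Since tissues of the same mouse share its number, the samples are paired by the labels. The correlation of deviations from the group means had a median of 0.114 in 8 pairs from 1 mouse (-0.335 to 0.454) and of 0.0353 in 25 pairs from different mice (-0.498 to 0.512). No 2 libraries of a group agreed within sampling noise. The script was tested on simulated data made from the real means, with the same dispersion for all genes and no shifts shared within a library. The rates below hold for that setting and may differ in the real libraries. In the TLS and kidney comparison (7152 genes, 200 changed), 75 of 78 calls were true, and limma recovered 6% of the genes changed 2-fold and 69% of those changed 4-fold.

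All members were named. Of the list genes called in a comparison, at most 4 per list, members aside, were named by the largest absolute log2 fold change, and of the genes most like a member, 3. Members and lists were chosen with earlier results of these data known. The 15 whole-kidney samples sequenced otherwise, and Trex1, were not analysed here. A list of type I interferon receptor signalling genes is not reported here.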

Additional observations from a re-analysis of the deposited data

How the results depend on the processing

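The tissues of 1 mouse allow a paired analysis. With the mouse as a replicate block, 1204 genes were called between TLS and kidney and 569 between TLS and lymph node, and the Irf8 call between TLS and lymph node was lost (log2 fold change -1.41, adjusted p = 0.154). It changed no other call of the 5 genes. That Irf8 call was also lost with edgeR (TMM or DESeq2 size factors), DESeq2, a pseudocount of 0.5, scaling outside ribosomal RNA and without the 3 libraries rich in ribosomal RNA, which left 0 of the 5 genes called. At a mean of at least 10 Irf8 was not tested, which also gave 0. With that filter, 3 of the genes were called between lymph node and kidney, among 2158 genes called in all. Without the 3 libraries, 1 of the 5 genes was called between TLS and kidney, among 1108 genes in all (1084 in the main fit). Between TLS and lymph node 408 genes in all were called without them. DESeq2 called 13 genes between lymph node states.

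Leaving out 1 library at a time gave 530 to 1344 genes called between TLS and kidney, 480 to 977 between TLS and lymph node and 2648 to 3272 between lymph node and kidney, with 0 to 4, 0 to 1 and 4 to 6 of the sensing genes among them. The count of 6 includes Tlr9, which passed the filter only without the kidney of H6 or of H20 (limma adjusted p = 0.0112 and 0.00999 between lymph node and kidney). Between lymph node states it gave 0 to 5 genes, and 0 to 0 sensing genes. Between TLS and kidney, Myd88 ranged from -0.039 (without the TLS of H6, where its direction turned) to 1.58 (without the TLS of H115). Between states, log2 fold changes ranged from -0.10 to 0.73 for Irf5, from -0.27 to 0.95 for Myd88 and from -0.092 to 0.75 for Unc93b1, with L25 and D11 left out at the ends, and from -0.070 to 0.36 for Irf8, with the lymph nodes of H20 and H6 left out. The cause was not tested. Of the genes called between TLS and kidney, 58.7% were higher in TLS, against 79.6% with TMM, 72.5% with edgeR on DESeq2 size factors and 68.8% with DESeq2. Of those between TLS and lymph node, 84.0% were higher in TLS, against 95.2% with TMM, 96.4% with scaling outside ribosomal RNA and 72.7% at a pseudocount of 5. With TMM the median log2 fold change of all genes was 0.12 for TLS against kidney and 0.14 for TLS against lymph node. In the main fit these medians were -0.01 and -0.04. Depth limits Tlr3, Tlr7, Tlr9 and Irak4, which were under the filter between tissues.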
